A study of Mus musculus with 27 samples.

Results

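The genes described here encode the clotting and complement proteins that hepatocytes secrete into plasma. The 36 members were chosen by name, each being 1 of the listed coagulation or complement genes, and all 36 were found among the 21850 genes of the count table. Coagulation runs as a chain of serine proteases. Factor XII, prekallikrein (Klkb1) and kininogen (Kng1) form the contact system, factors XI, IX, VII and X lead to prothrombin (F2), and thrombin cleaves fibrinogen (Fga, Fgb and Fgg) to fibrin, which factor XIII crosslinks and plasmin, made from plasminogen (Plg), dissolves. Complement starts from antibody (C4b, C2) or from sugars bound by mannose-binding lectins (Mbl1, Mbl2) with their proteases (Masp1, Masp2), converges on C3, and ends with C5 (named Hc in the mouse), C6, C8 and C9, which build a pore in a target membrane. Most of these proteins are made in the liver, so that their transcripts serve as a readout of the secretory work of hepatocytes.

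Their levels were followed in 27 bulk RNA-seq libraries of 9 conditions with 3 libraries each, all from C57BL/6 mice. Freshly isolated hepatocytes (Fresh) were compared with HepOrgs, which are organoids grown from wild-type primary hepatocytes and were taken at passage 2. HepOrgs were kept for 1 week or 2 weeks (7 or 14 days) in HM-Wnt or in MM, which both hold WNT-conditioned medium and a ROCK inhibitor. HM-Wnt is an expansion medium that adds growth factors, R-spondin, a GSK3 inhibitor and a TGFβ receptor inhibitor, and MM is a minimal medium. By the paper's methods, HepOrgs were expanded in HM-Wnt until passage 2 before they were moved to MM. Periportal assembloids were grown in MM after 10 HepOrgs had been put together with 1000 cholangiocytes and either 250 portal mesenchymal cells (homeostatic) or 2500 (fibrotic-like), and were taken at 1 week or 2.5 weeks (7 or 18 days). Their labels give the genotype as wild type, while the cholangiocytes and the mesenchymal cells came from animals with fluorescent reporters, the mesenchymal cells being sorted as PDGFRα-H2B-GFP+ SCA1+. Replicate 3 of Fresh is titled wild type but carries a genotype label of heterozygous MDR2, and it was used as titled. The study's methods describe the mice as healthy adults of both sexes, and whether replicates came from separate animals is not given in the labels used here, so p-values measure the spread between these libraries. Fewer cells of a type and less RNA per cell cannot be told apart in such bulk libraries.

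Libraries held 30289364 to 65348596 counts on genes. The 10 hepatocyte markers fixed for the check (Alb, Ttr, Apoa1 and others) summed to 106864 to 116749 CPM (counts per 1000000 counts of a library) in Fresh. They summed to 132583 to 202439 CPM in HM-Wnt HepOrgs, 79195 to 104051 in MM HepOrgs and 5369 to 115757 in assembloids. Replicate 2 of the homeostatic assembloids at 1 week stood apart. It had 6625 genes with at least 10 counts against 11840 to 14162 elsewhere, its hepatocyte markers were those at 5369 CPM, and 15 of the 36 members had no count, so the counts and medians of the assembloid comparisons it enters are also given without it. Fresh libraries carried low levels of other cell types, with endothelial markers at up to 123 and immune markers at 26.3 to 276 CPM.

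The 36 genes took a similar or larger share of all counts in HepOrgs than in fresh hepatocytes. They held 5.51%, 4.91% and 5.63% of counts in the 3 Fresh libraries. In HM-Wnt they held 7.82%, 10.5% and 6.44% at 1 week and 6.53%, 7.70% and 4.84% at 2 weeks. In MM they held 7.92%, 8.04% and 5.29% at 1 week and 8.10%, 8.72% and 5.49% at 2 weeks. The makeup of that share differed. The 3 fibrinogen genes were 37.4% to 43.9% of the members' counts in Fresh and 53.9% to 67.3% in the 12 HepOrg libraries, so these ranges did not overlap. Counted per kilobase of exon, Fgg was the highest member in all 9 conditions, with Fga and Fgb at ranks 2 and 3 in either order. Below them in Fresh came vitronectin (Vtn), Kng1, C3, F2 and Plg at ranks 4 to 8. Against that order Cpb2, a carboxypeptidase that slows fibrinolysis, stood at rank 17 in Fresh and at 6 in MM at both times, and C8a stood at 14 in Fresh and at 30 in HM-Wnt at 1 week.

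**Figure D1:**
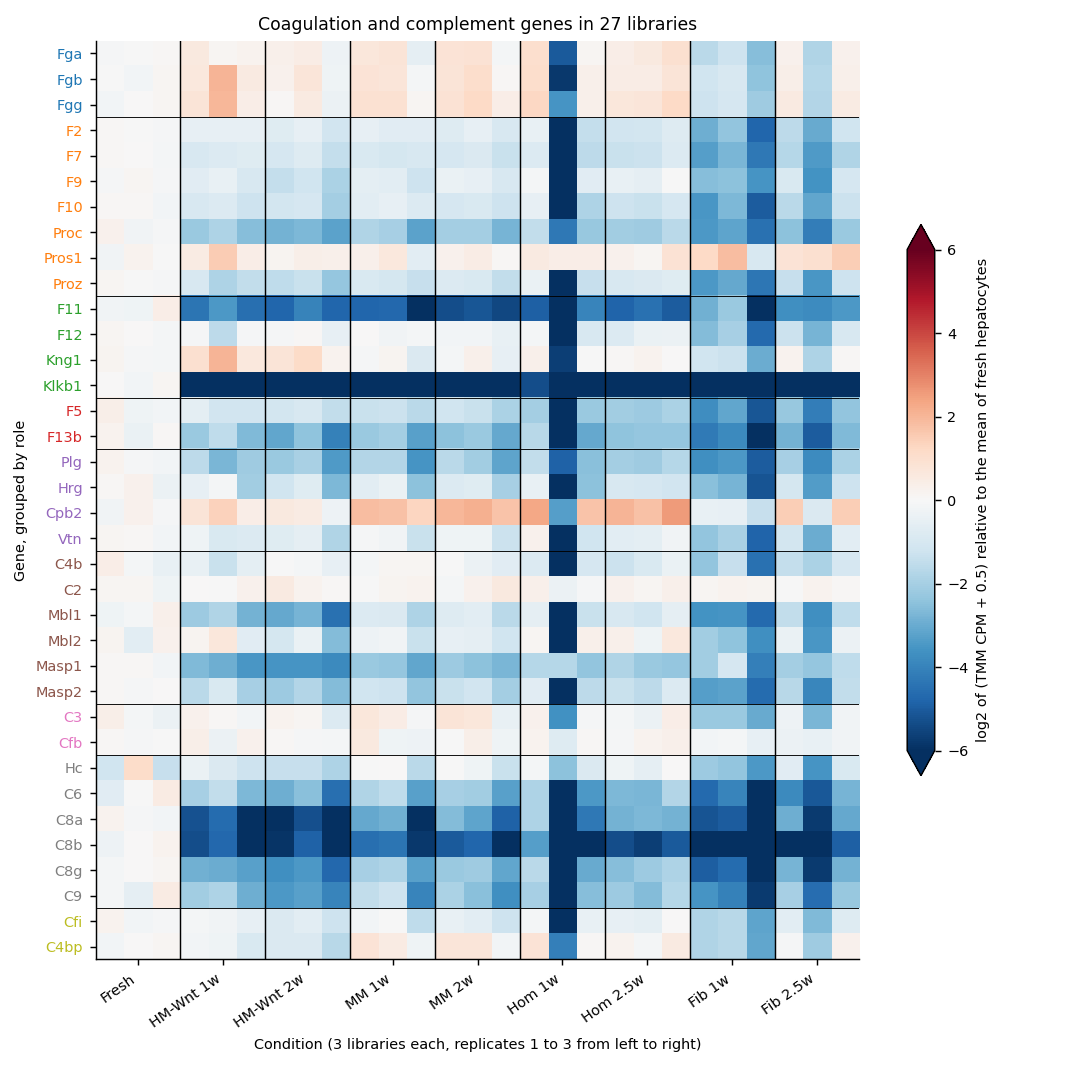
Level of each of the 36 genes (rows, grouped and coloured by role) in each of the 27 libraries (columns, 3 per condition), as log2 of the TMM-normalised CPM plus 0.5 relative to the mean of the 3 Fresh libraries, with colours ending at 6 on either side of 0. Klkb1, F11, C8a and C8b are dark blue in HepOrgs of both media, the fibrinogen rows stay near white or turn red, and replicate 2 of the homeostatic assembloids at 1 week is a blue column.

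Levels of single genes below are CPM scaled with edgeR's trimmed mean of M-values (TMM) over the 27 libraries. Sums of markers are CPM without TMM scaling. Fold changes are edgeR log2 fold changes with their standard errors (SE), averaged over the 2 times, with a Benjamini-Hochberg adjusted p under 0.05 as the threshold. Both comparisons with Fresh use the same 3 Fresh libraries and are given side by side. In HM-Wnt HepOrgs 20 of the 36 genes were lower than in Fresh and 1 was higher, where 28.8% of the 13405 genes tested were called lower and 27.9% higher (56.7% in either direction). In MM HepOrgs 19 were lower and 1 was higher, against 24.4% and 23.0% of all genes (47.4% in either direction). The median log2 fold change of the members was −1.07 in HM-Wnt and −0.77 in MM, beside 0.02 and −0.01 over all genes tested. Beside these, 7 of 10 hepatocyte markers were lower and 1 higher in HM-Wnt, and 9 were lower and 0 higher in MM. Without TMM scaling, their summed CPM was above every Fresh library in each HM-Wnt library and below every Fresh library in each MM library. The TMM factors, by which levels are divided, were 0.670 to 0.751 in Fresh and 0.767 to 1.12 in HepOrgs. Scaling thus raises the Fresh sums more, and with it not every HM-Wnt library stays above Fresh. Cholangiocyte markers summed to 8.17 to 95.6 CPM in Fresh and 3794 to 15447 in HepOrgs. The part of either cell type in the result was not tested. Scaling moved the upper end. With library totals in place of TMM, the median of all genes shifted by 0.46 (HM-Wnt) and 0.41 (MM), 6 and 7 members were then called higher, where 43.1% and 36.7% of all genes were, and 18 and 16 lower, where 17.7% and 14.0% were. The share of all called genes that were higher went from 49.2% to 70.8% in HM-Wnt and from 48.6% to 72.3% in MM. On log2(TPM + 1) 6 and 7 members were called higher too, where 56.2% and 49.0% of all genes were. With all 27 libraries in 1 fit 11 and 7 were called lower, where 13.3% and 9.04% of all genes were, and 0 higher, where 13.9% and 9.91% were.

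The fibrinogen genes, which encode the Aα, Bβ and γ chains of the clot-forming protein, were not called lower in HepOrgs. Fga stood at 10200, 10520 and 11100 CPM in Fresh, at 8669 to 15880 CPM (median 12650) in HM-Wnt and at 7323 to 19430 CPM (median 17540) in MM. Fgb stood at 9815 to 12020 CPM in Fresh and reached 45030 CPM in replicate 2 of HM-Wnt at 1 week, where Fgg reached 35140 CPM. The HepOrg libraries fell on both sides of the Fresh values for Fga and Fgb. Fgg stood at 8033 to 9746 CPM in Fresh and at 6955 to 35140 CPM in HM-Wnt, which overlapped. In MM it stood at 9812 to 20180 CPM, above all Fresh libraries, with a log2 fold change of 0.78 (SE 0.36, edgeR adjusted p = 0.0887). None of the 3 genes passed the test, and Fga had a log2 fold change of 0.21 (SE 0.32, edgeR adjusted p = 0.600) in HM-Wnt and 0.51 (SE 0.32, edgeR adjusted p = 0.210) in MM. With library totals in place of TMM all 3 were called higher in both media, by 0.66, 1.15 and 1.04 for Fga, Fgb and Fgg in HM-Wnt and by 0.87, 0.99 and 1.15 in MM.

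The contact system split. Klkb1, which encodes the kallikrein precursor, lost nearly all of its reads. It had 3965, 2064 and 3653 counts in the Fresh libraries, 2 to 10 counts in the 6 HM-Wnt libraries and 8 to 20 in the 6 MM libraries, a log2 fold change of −9.35 (SE 0.36, edgeR adjusted p = 2.58e-09) in HM-Wnt and −8.41 (SE 0.34, edgeR adjusted p = 4.94e-09) in MM. In assembloids it had 0 to 74 counts. Of its exon bases 43.2% lie within the span of the predicted gene Gm45753, and how reads in overlapping genes were counted is not stated. F11, the factor XI gene next to it on chromosome 8, stood at 149, 141 and 223 CPM in Fresh, 5.87 to 15.4 in HM-Wnt and 1.99 to 6.04 in MM. It was lower by a log2 fold change of −4.37 (SE 0.34, edgeR adjusted p = 3.49e-07) in HM-Wnt and −5.34 (SE 0.36, edgeR adjusted p = 1.44e-07) in MM. Both genes were far below Fresh in every HepOrg library. F12, the factor XII gene that starts the pathway, was not called in either medium (log2 fold changes of −0.32 and −0.17). Kng1, the kininogen gene, was the 1 member called higher in HM-Wnt. Its level was 5685, 4960 and 4752 CPM in Fresh and 5858 to 21070 CPM in HM-Wnt, which did not overlap, with a log2 fold change of 1.01 (SE 0.35, edgeR adjusted p = 0.0254). That call was lost without Fresh replicate 2 (edgeR adjusted p = 0.0652), without Fresh replicate 3 (0.0780) and without HM-Wnt 2-week replicate 2 (0.0501). In MM, Kng1 stood at 2818 to 6260 CPM, with a log2 fold change of −0.13 against Fresh.

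**Figure D2:**
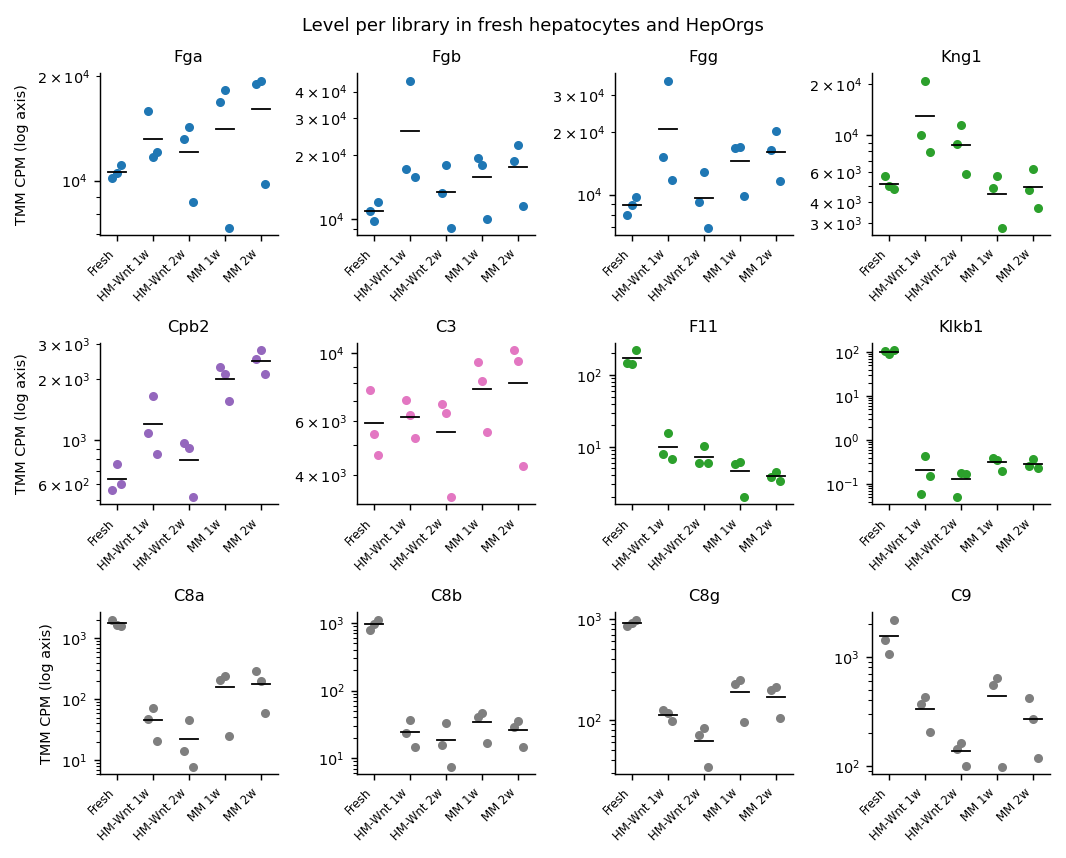
TMM-normalised CPM (log axis, each panel with its own range) of 12 members in Fresh and in HepOrgs of HM-Wnt and MM at 1 and 2 weeks, where each point is a library and each bar the mean of 3. F11, Klkb1, C8a, C8b, C8g and C9 lie below all Fresh libraries in every HepOrg library, while Fga, Fgb, Fgg and C3 spread around or above the Fresh level and Cpb2 in MM lies above it.

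The vitamin K-dependent factors, whose glutamate residues are carboxylated before secretion, moved down by smaller steps. Of 7 genes, 6 (F2, F7, F9, F10, Proc and Proz) were lower in each medium, with log2 fold changes from −2.58 (Proc, the protein C gene) to −0.67 (F2) in HM-Wnt and from −2.23 (Proc) to −0.67 (F2) in MM. Prothrombin stood at 5140, 4794 and 4621 CPM in Fresh, at 2206 to 3469 CPM in HM-Wnt and at 2480 to 3462 CPM in MM, so all HepOrg libraries were below all Fresh libraries. F2 had an edgeR adjusted p of 0.00457 in HM-Wnt (SE 0.17) and 0.00591 in MM (SE 0.17). With library totals F2 was no longer called in either medium (−0.22 and −0.27), nor F9 in MM. Pros1, which encodes protein S, the cofactor of protein C, was the exception, with 93.5 to 123 CPM in Fresh, 120 to 307 CPM in HM-Wnt and 69.0 to 168 CPM in MM and no call. It was called higher in both media with library totals (0.99 and 0.62) and on log2(TPM + 1). The cofactor gene F5 and F13b, the carrier subunit of factor XIII, were both lower in both media, by −1.09 and −2.62 in HM-Wnt and −1.43 and −2.48 in MM.

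Among genes of fibrinolysis and its modulators, plasminogen went down and Cpb2 went up. Plg stood at 4159, 3433 and 3182 CPM in Fresh, at 345 to 1214 CPM in HM-Wnt and at 305 to 1156 CPM in MM. Every HepOrg library was below the lowest Fresh library, and the log2 fold change was −2.27 (SE 0.43, edgeR adjusted p = 5.89e-04) in HM-Wnt and −2.15 (SE 0.43, edgeR adjusted p = 0.00122) in MM. Cpb2, at 559, 759 and 604 CPM in Fresh, was at 518 to 1646 CPM in HM-Wnt, which overlapped Fresh, and at 1553 to 2795 CPM in MM, which did not. It was the only member called higher in MM, with a log2 fold change of 1.80 (SE 0.27, edgeR adjusted p = 1.51e-04, 3.47-fold), and in HM-Wnt it had 0.56 (edgeR adjusted p = 0.0792), which passed without HM-Wnt replicate 3 of either time. Vtn and Hrg, the histidine-rich glycoprotein gene, were not called in either medium (Vtn −0.82 and −0.48, Hrg −1.05 and −0.99). With the replicate number as a block Hrg was called lower in both media and Vtn in HM-Wnt, which Vtn also was with DESeq2 and RLE size factors. That fit called 23 members lower and 2 higher in HM-Wnt, where 29.6% and 28.7% of all genes were called, and 21 and 2 in MM, where 25.5% and 23.9% were.

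In complement, the terminal pathway took the largest steps. Of its 6 genes 5 (C6, C8a, C8b, C8g and C9) were lower in both media, with a median log2 fold change over the 6 of −3.21 in HM-Wnt and −2.26 in MM. C8a and C8b encode the α and β chains of C8, and C8g its γ chain. C8a stood at 2041, 1679 and 1594 CPM in Fresh and fell to 7.80 to 71.2 CPM in HM-Wnt and 24.6 to 288 CPM in MM. It was lower by a log2 fold change of −5.83 (SE 0.72, edgeR adjusted p = 1.81e-05) and −3.37 (SE 0.67, edgeR adjusted p = 0.00111). C8b stood at 777, 977 and 1122 CPM in Fresh, 7.49 to 36.6 in HM-Wnt and 14.8 to 46.2 in MM, giving −5.52 (SE 0.47, edgeR adjusted p = 6.41e-07) and −4.99 (SE 0.46, edgeR adjusted p = 2.14e-06). The lowest Fresh library was thus above the highest HepOrg library for both chains. C8g fell less, from 847 to 986 CPM to 34.4 to 125 CPM and 95.8 to 250 CPM. C9, the subunit that polymerises into the pore, stood at 1419, 1054 and 2192 CPM in Fresh, 99.7 to 427 in HM-Wnt and 98.9 to 647 in MM, a log2 fold change of −2.91 (SE 0.50, edgeR adjusted p = 2.42e-04) and −2.17 (SE 0.49, edgeR adjusted p = 0.00267). Hc, the C5 gene, was not called (−1.19, SE 0.52, edgeR adjusted p = 0.0631 and −0.39, SE 0.53, edgeR adjusted p = 0.563). Its Fresh values were 245, 1235 and 219 CPM, and without the library at 1235 CPM (replicate 2) its log2 fold changes were 0.10 and 0.90. Leaving out Fresh replicate 1 or 3 instead, Hc was called lower in HM-Wnt.

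C3, on which the routes into complement converge, was not called in either medium. It stood at 7584, 5460 and 4662 CPM in Fresh, 3393 to 7048 CPM in HM-Wnt and 4298 to 10220 CPM in MM, and these ranges overlapped. Its log2 fold change was −0.05 (SE 0.32, edgeR adjusted p = 0.901) in HM-Wnt, which turned positive (0.40) with library totals, and 0.41 (SE 0.32, edgeR adjusted p = 0.315) in MM, where it was called higher (0.79) with library totals. In the lectin pathway Mbl1, Masp1 and Masp2 were lower in both media, by −2.81, −3.38 and −1.84 in HM-Wnt and −1.02, −2.48 and −1.48 in MM. The Mbl1 call in MM was lost with library totals, without Fresh replicate 2 or 3, and without MM replicate 3 of either time (edgeR adjusted p from 0.0532 to 0.143). Of the exon bases of Masp2 60.3% lie within Tardbp. Mbl2, which encodes the second mannose-binding lectin, and C4b were not called. C4bp, which encodes a soluble inhibitor of C4b, was lower in HM-Wnt (−0.80, edgeR adjusted p = 0.0301), a call lost with library totals (−0.35) and without any 1 of the 3 Fresh libraries or HM-Wnt replicate 3 of either time, and C4bp was called higher in MM with library totals (0.81). Cfi, the factor I protease gene, was called in neither medium (−0.62 and −0.59), but was called lower in both with the replicate block (−0.65 and −0.67). C2 and Cfb, the protease genes of the classical and alternative convertases, had at most 18 and 40 counts in any of the 27 libraries, Fresh included, and 96.2% and 100.0% of their exon bases lie within other annotated genes, so their level could not be read from these counts.

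**Figure D3:**
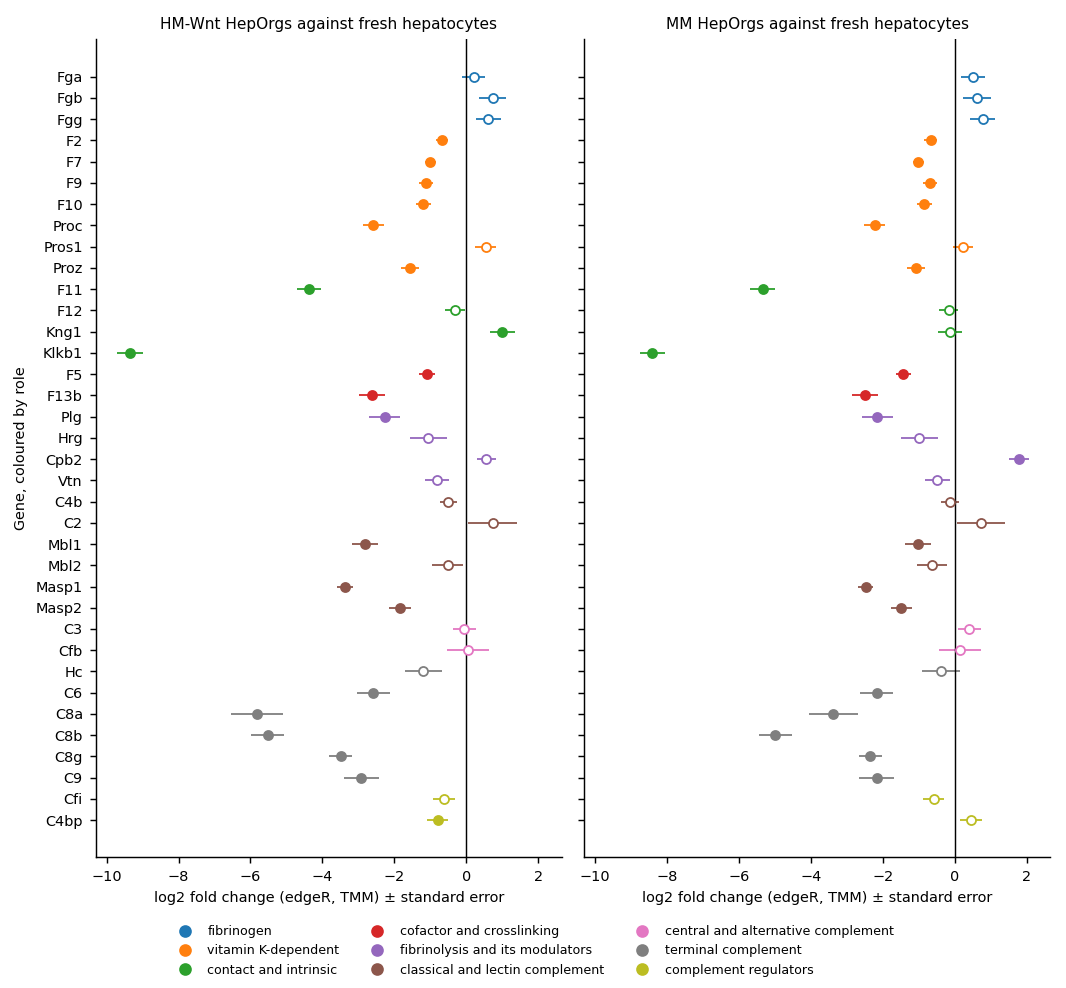
Log2 fold change with its standard error (edgeR, TMM) of each of the 36 genes in HM-Wnt and in MM HepOrgs against the same 3 Fresh libraries, coloured by role, with filled points for an adjusted p under 0.05. In HM-Wnt 20 filled points lie left of 0 and 1 right of it, and in MM 19 and 1, with Klkb1 farthest left in both panels.

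Several members lie next to each other in the genome (GRCm39, GENCODE annotation), and 12 pairs are within 200 kb. Klkb1 (chromosome 8, 45719726 to 45747900) and F11 (45693697 to 45715177) are 4.55 kb apart on the same strand and both were strongly lower. C8b and C8a are 10.3 kb apart on chromosome 4 on opposite strands, and both were lower as well. The fibrinogen genes share a stretch of chromosome 3, with Fgg 11.02 kb from Fga and Fga 6.51 kb from Fgb, and none of them was called. Nearness did not always go with a like value. Hrg and Kng1 are 96.21 kb apart on chromosome 16, and their log2 fold changes in HM-Wnt were −1.05 and 1.01.

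The sequences of 250 bases before the start site are shown for the 3 fibrinogen genes, which had the highest levels and were not called, and for C8a, C8b, F11 and Klkb1, which fell the most, so that the promoters of both sets can be read side by side. They are from RefSeq (GRCm38.p6), whose promoter table matched 28 of the 36 members by symbol. C2, C4b, Cfb, Cfi, Kng1, Masp1, Plg and Proc had no entry. Capitals mark matches, on either strand, to short motifs of liver and acute-phase factors: C/EBP TTGCNNAA, FOXA TGTTTNC, STAT TTCNNNGAA and the IL-6 response element CTGGGAA. HNF4 TGNACTTTG and the longer HNF1 motif were searched too and had no match in these 7 windows. No match shown overlaps another.
Fga (chr3:83025903-83026152, plus strand): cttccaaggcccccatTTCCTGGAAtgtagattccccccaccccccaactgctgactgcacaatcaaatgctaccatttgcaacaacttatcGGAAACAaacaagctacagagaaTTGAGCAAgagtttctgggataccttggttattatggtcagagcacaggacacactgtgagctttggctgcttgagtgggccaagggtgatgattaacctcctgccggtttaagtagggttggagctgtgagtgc
Fgb (chr3:83049864-83050113, minus strand): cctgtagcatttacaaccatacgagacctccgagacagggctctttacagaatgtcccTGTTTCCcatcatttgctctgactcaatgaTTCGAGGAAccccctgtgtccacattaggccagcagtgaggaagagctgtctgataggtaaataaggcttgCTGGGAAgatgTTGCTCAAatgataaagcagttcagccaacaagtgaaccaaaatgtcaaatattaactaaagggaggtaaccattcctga
Fgg (chr3:83007474-83007723, plus strand): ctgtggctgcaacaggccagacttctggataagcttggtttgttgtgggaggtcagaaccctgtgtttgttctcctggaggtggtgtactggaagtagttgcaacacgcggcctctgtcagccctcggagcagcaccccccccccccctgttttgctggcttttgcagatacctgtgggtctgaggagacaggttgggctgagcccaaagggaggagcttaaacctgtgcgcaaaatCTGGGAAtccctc
C8a (chr4:104876399-104876648, minus strand): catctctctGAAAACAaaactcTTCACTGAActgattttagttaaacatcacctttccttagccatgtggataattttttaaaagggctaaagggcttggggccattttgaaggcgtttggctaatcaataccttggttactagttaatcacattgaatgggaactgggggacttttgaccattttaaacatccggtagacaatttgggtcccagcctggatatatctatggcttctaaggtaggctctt
C8b (chr4:104766067-104766316, plus strand): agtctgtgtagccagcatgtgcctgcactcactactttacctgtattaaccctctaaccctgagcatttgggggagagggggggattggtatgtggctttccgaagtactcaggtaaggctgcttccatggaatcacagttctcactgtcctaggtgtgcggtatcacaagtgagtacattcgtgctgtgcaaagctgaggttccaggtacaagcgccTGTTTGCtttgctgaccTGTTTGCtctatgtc
F11 (chr8:45262032-45262281, minus strand): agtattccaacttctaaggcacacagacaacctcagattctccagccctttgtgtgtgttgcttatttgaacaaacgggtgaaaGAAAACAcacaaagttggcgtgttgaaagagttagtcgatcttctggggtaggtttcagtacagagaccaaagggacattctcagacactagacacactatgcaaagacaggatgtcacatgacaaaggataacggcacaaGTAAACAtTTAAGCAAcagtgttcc
Klkb1 (chr8:45294836-45295085, minus strand): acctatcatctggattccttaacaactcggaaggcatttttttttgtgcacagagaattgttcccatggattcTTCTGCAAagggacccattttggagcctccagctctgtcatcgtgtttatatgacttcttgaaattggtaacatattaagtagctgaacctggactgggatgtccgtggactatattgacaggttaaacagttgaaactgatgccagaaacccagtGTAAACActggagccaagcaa
Fga and Fgb each held a C/EBP, a FOXA and a STAT match, Fgb also held an IL-6 element match, and Fgg held an IL-6 element match 7 bases before its start. C8a held a FOXA and a STAT match. C8b held a pair of FOXA matches 26 and 9 bases before the start, and F11 and Klkb1 each held a C/EBP match and FOXA letters, the nearest 19 and 15 bases before the start. FOXA, C/EBP and STAT matches thus stood in both sets. Over all 32851 promoters searched the letters of FOXA were found in 17.8%, of C/EBP in 9.56%, of STAT in 7.02% and of the IL-6 element in 9.1%, and over the 28 members in 8, 8, 6 and 4 promoters. HNF1 letters were found in 3 members (C4bp, F13b and Hc) and 0.371% of all promoters, and HNF4 letters in 1 (F9) and 1.19%. A match is a run of letters and not a measured site.

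The media differed for a smaller set. Between MM and HM-Wnt HepOrgs 6 members were higher in MM and 2 lower, where 11.5% and 10.0% of 12989 genes were called (21.5% in either direction), and the median member difference was 0.34 (log2) beside −0.02 over all genes. C8a rose by a log2 fold change of 2.45 in MM over HM-Wnt (SE 0.63, edgeR adjusted p = 0.0188), with medians of 202 and 33.2 CPM, although replicate 3 of MM at 1 week (24.6 CPM) stood within the HM-Wnt range. Without HM-Wnt 2-week replicate 1 its adjusted p was 0.0509. Mbl1 stood at 97.7 to 227 CPM in MM and 15.4 to 102 CPM in HM-Wnt, a log2 fold change of 1.79 (SE 0.33, edgeR adjusted p = 0.00363). C4bp was at 987 to 2106 CPM in MM and 383 to 1086 CPM in HM-Wnt (1.24, SE 0.26, edgeR adjusted p = 0.00691). Cpb2 gave 1.24 (SE 0.21, edgeR adjusted p = 0.00281), and C8g and Masp1 were the other 2 called higher. Lower in MM were Kng1 (−1.14, SE 0.29, edgeR adjusted p = 0.0188) and F11 (−0.97, SE 0.30, edgeR adjusted p = 0.0417), whose call was lost without any 1 of 8 libraries. The ranges of the 2 media overlapped for each of these 8 genes.

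All 6 terminal complement genes had their lowest value in replicate 3 in each of the 4 HepOrg conditions. So did many members of other roles, such as F9, F10, Fgb, Fgg, Proc, Kng1, Cpb2, C3, Cfi and Mbl2. Over all genes the libraries with the same number deviated together (18 of 18 pairs with a correlation over 0.1). With the replicate number as a block, 11 members were higher and 3 lower in MM, where 15.2% and 13.8% of all genes were called. Those added were C8b (0.58), F10 (0.36), F9 (0.42), Hc (0.69) and Proz (0.49), higher in MM, and F5 (−0.35), lower. Of the genes followed in every comparison, F2 (0.00, SE 0.15, edgeR adjusted p = 0.998), Fga (0.30, SE 0.28, 0.475), Plg (0.12, SE 0.39, 0.857), C3 (0.46, SE 0.27, 0.242), Hc (0.80, SE 0.31, 0.0907) and C9 (0.74, SE 0.43, 0.246) were not called without the block. C9 was called higher in MM without MM 1-week replicate 3 (0.98), as were F9 and Hc. The sign of F2 and Plg turned in several alternatives.

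**Figure D4:**
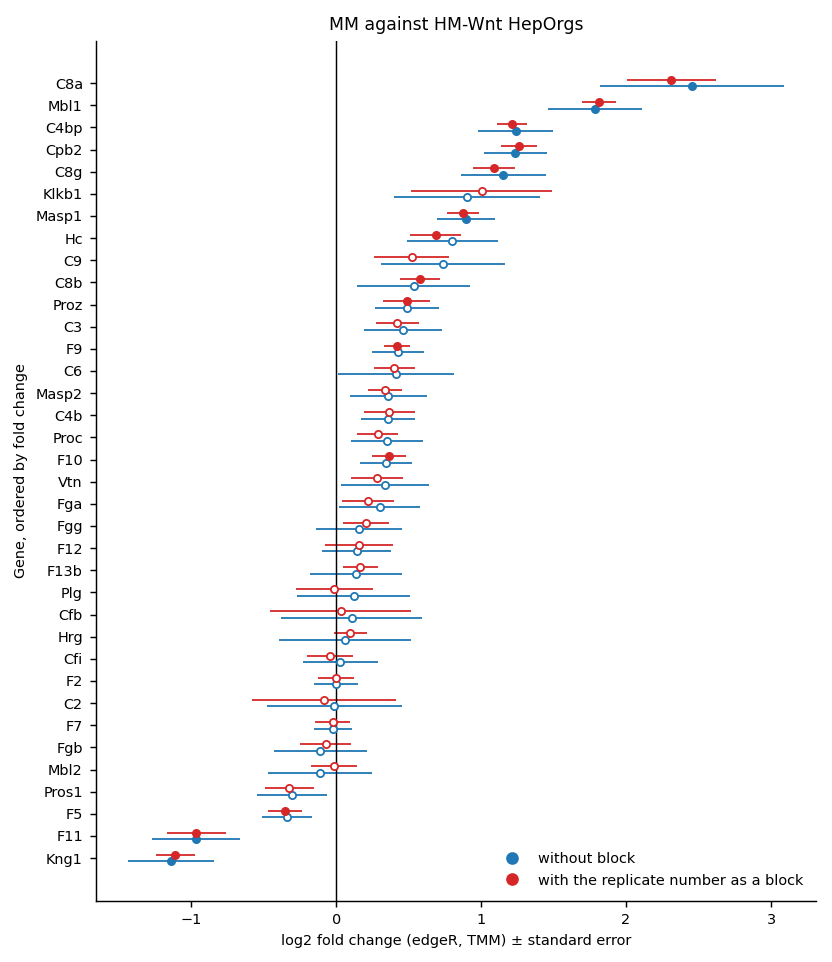
Log2 fold change of MM against HM-Wnt HepOrgs with its standard error for each of the 36 genes, ordered by value, from the fit without (blue) and with (red) the replicate number as a block, with filled points for an adjusted p under 0.05. Without the block 8 points are filled (6 right of 0 and 2 left), with it 14, and standard errors are mostly shorter with the block.

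Time in culture gave no call among the members. At 2 weeks against 1 week, over both media, 0 of 36 were called by edgeR (1 at an unadjusted p under 0.05, 14 with the replicate block and 10 without MM 1-week replicate 3, 0 called by the block or DESeq2), where 0.0077% of 12989 genes were called, and 32 of the 36 values were negative with a median of −0.29. C9 was the member at an unadjusted p under 0.05, with −0.96 (SE 0.43, edgeR adjusted p = 0.411). The effect of the medium did not pass a test of change between the times for any member (3 at an unadjusted p under 0.05, F9, Cpb2 and C4b, and 17 with the replicate block).

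In assembloids the libraries of a condition differed greatly. The 36 genes held 7.85%, 0.396% and 6.52% of counts in homeostatic assembloids at 1 week and 6.63%, 6.78% and 7.70% at 2.5 weeks. In fibrotic-like assembloids they held 2.94%, 3.43% and 1.69% at 1 week and 6.73%, 2.45% and 6.83% at 2.5 weeks. Fibrotic-like libraries at 1 week were thus all below the homeostatic ones but for the library that stood apart, and at 2.5 weeks 1 of 3 was. In the fit of all 12 libraries 0 of 36 members were called (4 at an unadjusted p under 0.05, 0 by DESeq2), as was 0.0% of the 14253 genes tested, with a median member log2 fold change of −1.31 and 32 of 36 negative. That median was −0.75 without replicate 1 of the homeostatic assembloids at 1 week, −0.70 with library totals and −0.002 on log2(TPM + 1). C3 had −1.41 (SE 0.61, edgeR adjusted p = 0.245) and Hc −1.40 (SE 0.51, edgeR adjusted p = 0.178). The 3 fibrinogen genes had values from −1.32 to −1.15 in the fit of all 12 libraries.

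Without replicate 2 of the homeostatic assembloids at 1 week, 24 of the 36 genes were lower in fibrotic-like assembloids and 0 higher, where 13.4% of all genes were called lower and 16.2% higher, and the median was −1.60. The largest of these were C8g (−2.09, SE 0.53, edgeR adjusted p = 0.0201), Mbl1 (−2.07, SE 0.41, 0.0116), Mbl2 (−2.03, SE 0.51, 0.0201) and Cpb2 (−1.99, SE 0.43, 0.0139). All 3 fibrinogen genes were among them, as were F2 (−1.54, SE 0.46, edgeR adjusted p = 0.0347), Plg (−1.24, SE 0.40, 0.0436), C3 (−1.67, SE 0.45, 0.0235) and Hc (−1.60, SE 0.46, 0.0297), while C9 missed the threshold (−1.26, SE 0.49, 0.0754). Pros1 (0.61), Masp1 (0.08) and F11 (1.23) were the members with a positive value, and none of the 3 was called. The library left out had no count for 15 of the 36 members, and without it the median moved from −1.31 to −1.60. This fit had 2 homeostatic libraries at 1 week. Leaving out any other assembloid library instead called 0 members. In the library that stood apart Pros1 (142 CPM) was within the range of the other 5 homeostatic libraries (118 to 196 CPM), and Masp1 (86.4 CPM) was just above theirs (54.6 to 84.8 CPM). In the same fit 10 of 10 mesenchyme markers were higher (median 3.60) and 5 of 6 cholangiocyte markers (median 3.02), and 3 of 10 hepatocyte markers were lower (median −0.96). Over the 6 fibrotic-like libraries the hepatocyte markers summed to 14402 to 115757 CPM, the cholangiocyte markers to 7022 to 15438 and the mesenchyme markers to 604 to 9240, and over the 5 other homeostatic libraries to 75796 to 104070, 5357 to 8550 and 113 to 361. The part of these cell types in the result was not tested.

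**Figure D5:**
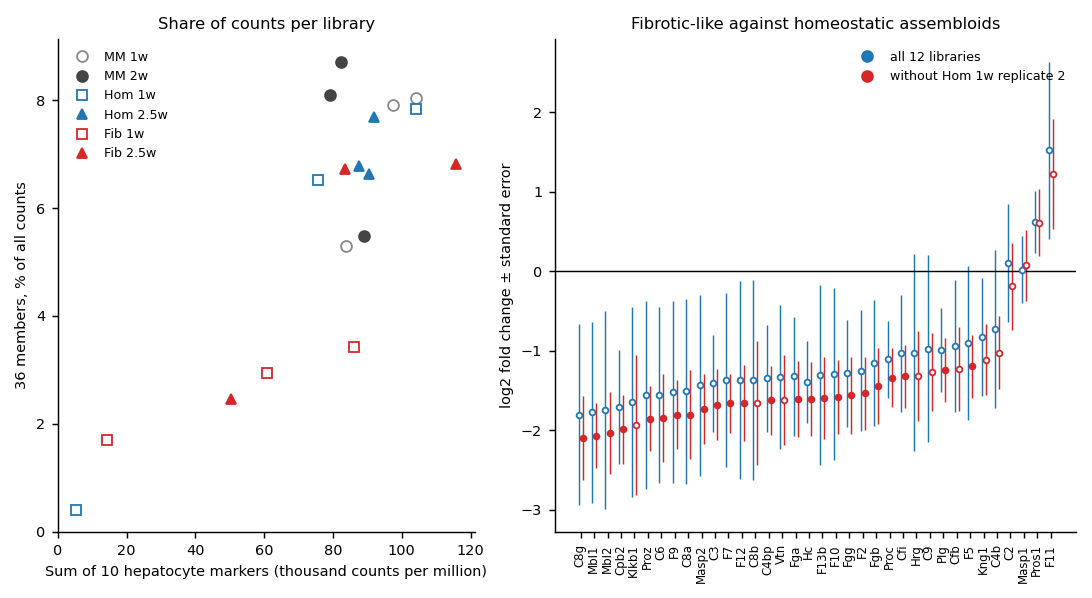
Left, the percent of all counts held by the 36 genes against the summed level of 10 hepatocyte markers in MM HepOrg and assembloid libraries, where the homeostatic library that stood apart is the lowest point (0.396%) and the 3 fibrotic-like libraries at 1 week lie at 1.69% to 3.43%. Right, the log2 fold change of fibrotic-like against homeostatic assembloids with its standard error for each gene, from all 12 libraries (blue, 0 filled) and without the library that stood apart (red, 24 filled), where filled points have an adjusted p under 0.05.

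Against MM HepOrgs at 1 week, 0 of 36 members were called in either assembloid (0.0% of 14386 genes in homeostatic, 0.751% in fibrotic-like). For homeostatic assembloids the median was −0.40, 0.17 without the library that stood apart and −1.31 without replicate 1 of the same condition, so its direction rested on single libraries. For fibrotic-like assembloids it was −2.18, with 9 members at an unadjusted p under 0.05, and DESeq2 called C3, C4bp, Cpb2, F2, Fgg and Hc lower (6 of 36, where it called 4.46% of genes lower). C3 had the lowest p of the 9, with a log2 fold change of −2.86 (SE 0.80, edgeR adjusted p = 0.0738). At 2.5 weeks against 1 week 0 members were called (0 at an unadjusted p under 0.05, 0 by DESeq2), with a median of 0.93 (0.64 without the library that stood apart). For the change of the fibrotic-like effect between those times 0 members were called as well (0 at an unadjusted p under 0.05, 0 by DESeq2). Its median was 0.91, 1.49 without the library that stood apart, −0.06 without replicate 1 of the same condition and −0.78 on log2(TPM + 1), so no direction was read from it.

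Other genes of the pathways were followed from a list of 52, of which 45 were tested in HepOrgs against Fresh. In HM-Wnt 13 were higher and 24 lower, where 27.9% and 28.8% of all genes were, and in MM 13 and 19, where 23.0% and 24.4% were. C1qc and C1qa, chains of the complement starter C1q that macrophages make, had 254 to 1393 and 171 to 871 counts in Fresh and at most 2 in any HM-Wnt library, and Fcna, a ficolin of macrophages, fell by 10.68 on the log2 scale. Immune markers summed to 26.3 to 276 CPM in Fresh and 14.8 to 59.7 CPM in HM-Wnt. Of these 8 markers 7 were called lower in HM-Wnt and 1 higher, with a median log2 fold change of −7.93. In MM the collectin gene Colec10 had no count in any library and was at least 107-fold lower than in Fresh (3 counts per library as the floor). F2rl1, a protease-activated receptor, had no count in Fresh and was at least 43.2-fold higher in HM-Wnt and at least 37.1-fold higher in MM. A2m, the gene of a broad protease inhibitor, rose from 0.25 CPM in Fresh to 315 CPM in HM-Wnt and 131 CPM in MM (means). Between the media C1qa, C1qc and C1qb were higher in MM (log2 fold changes of 8.32, 8.28 and 7.34), mostly through replicate 3 at 2 weeks, which held 1024 counts of C1qc and immune markers at 768 CPM against 6.74 to 61.0 in the other MM libraries. The part of other cell types in these values was not tested.

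Inhibitors and activators of the same chain were added after their values had been seen. Serpinc1, which encodes antithrombin, the main inhibitor of thrombin and factor X, stood at 5285, 5244 and 5036 CPM in Fresh, at 68.8 to 930 CPM in HM-Wnt and at 774 to 2096 CPM in MM. It was lower by −3.92 in HM-Wnt (SE 0.48, edgeR adjusted p = 1.54e-05) and −1.76 in MM (SE 0.47, edgeR adjusted p = 0.00714), and higher by 2.17 in MM than in HM-Wnt (SE 0.44, edgeR adjusted p = 0.00617). Plat, the tissue plasminogen activator gene, had 2 to 6 counts per Fresh library and rose to a mean of 110 CPM in HM-Wnt and 70.1 CPM in MM. Of the 6 genes of the vitamin K cycle and of secretion of clotting factors, 4 were lower and 1 higher in HM-Wnt, where 28.8% and 27.9% of all genes were. In MM 4 were lower and 0 higher, where 24.4% and 23.0% were. Ggcx, the carboxylase gene, was among those lower in each medium (−1.15 and −0.65). Serpind1, the heparin cofactor II gene, was listed at 0 in all 27 libraries, Fresh included. Whether its exons lie within other genes was not checked, so no level was read from this.

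Across the 9 condition means the genes outside the list whose level followed the mean of the standardised members most closely were Adtrp, Slc46a3, Tmem19, Sec24a and Acot12, with Pearson correlations of 0.996, 0.992, 0.990, 0.986 and 0.985. These are descriptions over 9 points that share the scaling and the differences in cell makeup. The point of the homeostatic assembloids at 1 week includes the library that stood apart, and its weight in the correlations given here was not tested. Among the members Vtn followed the mean of the set best (0.986) and Pros1 least (−0.424).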

How the data were processed

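Libraries were made by the SMARTseq2 protocol. According to the paper's methods and the labels, STAR with GRCm39 was used for alignment and featureCounts for assigning reads, and whether reads in overlapping genes or on either strand were counted is not given in the sources used here. The authors deposited raw counts as whole numbers, together with a TPM computed from a gene length that was within 5% of the gene span for 80.8% of genes. The table has 37 libraries. Of these, 27 have labelled conditions and were used, and 10 were left out. No pair of libraries was identical.

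Counts were tested in R 4.3.3 with the quasi-likelihood test of edgeR 4.0.16 after TMM scaling. Genes were kept by filterByExpr (count 10, total 15), the prior count was 0.125, each condition had its own mean, and p-values were adjusted over all genes of a fit. The fits held 15 libraries (Fresh and HepOrgs), 12 (HepOrgs), 12 (assembloids) and 18 (MM HepOrgs and assembloids). All 36 members passed the filter in each. Levels per kilobase used the exon union of the GENCODE annotation. The scripts were tested on simulated counts.

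Alternatives were RLE size factors, DESeq2 1.42.0, a stricter filter (10 counts in each library) or none, limma 3.58.1 on log2(TPM + 1), a single fit of the 27 libraries, a replicate block, and leaving out libraries 1 at a time. Library totals without TMM were added after the data had been seen. Values with SE and p are printed for up to 4 called members a direction with the largest change and for F2, Fga, Plg, C3, Hc and C9, and for some other members whose call turned on a setting. Between assembloids they are printed for C3 and Hc only in the fit of all 12 libraries, and for Fga in no fit. The members and gene lists were chosen with earlier results of these data known.

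Pairing was checked by correlating deviations from condition means. Among HepOrgs, all 18 pairs of libraries with a shared replicate number were over 0.1 (0.127 to 0.503), as were 2 of 36 other pairs. What the numbers stand for is not given in the sources used here. Depth was 30289364 to 65348596 counts per library. C4a is not analysed here.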

Additional observations from a re-analysis of the deposited data

How the results depend on the processing

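Counts of called members kept within 1.5 times of the reported one except as follows. Against Fresh, the number called higher in HM-Wnt went from 1 to 2 with the replicate block, 6 with library totals, 6 on log2(TPM + 1), 0 with all 27 libraries in 1 fit and 0 to 2 when 1 library was left out, and in MM from 1 to 2 with the replicate block, 7 with library totals, 2 with DESeq2, 7 on log2(TPM + 1) and 0 with all 27 libraries. The number lower went from 20 to 11 in HM-Wnt and from 19 to 7 in MM with all 27 libraries in 1 fit. Lower in every alternative in which they were tested, those that left out a library included, were C8a, C8b, C8g, C9, F11, F13b, Klkb1, Masp1, Mbl1, Plg and Proc in HM-Wnt (11) and C8a, C8b, F11, Klkb1, Masp1, Plg and Proc in MM (7). Klkb1 had 2 to 10 counts in the HM-Wnt libraries, so it was not tested against Fresh with at least 10 counts in every library. Between media, the 6 higher became 11 with the replicate block and 0 with all 27 libraries, and the 2 lower became 0 with all 27 libraries and 1 to 2 with 1 library left out. Between assembloids, 0 to 24 were lower with 1 library left out (24 without replicate 2 of homeostatic at 1 week) and 1 with all 27 libraries. Fibrotic-like against MM HepOrgs gave 1 higher on log2(TPM + 1), and 1 lower with at least 10 counts in every library, 6 with DESeq2, 1 on log2(TPM + 1) and 2 with all 27 libraries. Over all genes DESeq2 called 1360 higher and 344 lower between assembloids (edgeR 0 and 0), 229 and 185 between HepOrg times (1 and 0), and, against MM HepOrgs at 1 week, 661 and 208 in homeostatic (0 and 0) and 1325 and 734 in fibrotic-like assembloids (52 and 56). The fit of all 27 libraries called 52 and 39 genes between media (edgeR 1488 and 1304), 1569 and 649 between assembloids and 700 and 368 in fibrotic-like assembloids against MM HepOrgs, and log2(TPM + 1) called 1392 and 7, and 2022 and 131, in the latter pair of comparisons. The cause of these moves was not tested.

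Signs turned only for named members that edgeR had not called. In HM-Wnt against Fresh, C3 (−0.05) became 0.006 with at least 10 counts in every library, 0.40 with library totals, 0.62 on log2(TPM + 1) and −0.18 to 0.19 with 1 library left out, and Hc (−1.19) ranged from −1.57 to 0.095. In MM against Fresh, Hc (−0.39) became 0.006 with library totals, 0.48 on log2(TPM + 1) and −0.76 to 0.90 with 1 library left out. Between media, F2 became −0.004 with at least 10 counts in every library, −0.055 with library totals, −0.11 on log2(TPM + 1), −0.04 with all 27 libraries and −0.08 to 0.083 with 1 library left out, and Plg became −0.012 with the replicate block, −0.063 on log2(TPM + 1) and −0.074 to 0.32 with 1 library left out. C9 between assembloids became 0.20 on log2(TPM + 1).

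The replicate block moved no other count of called members by over 1.5 times. Outside the HepOrg fit not all pairs with a shared number were over 0.1 by the same check. In the fit with Fresh 19 of 30 were, against 7 of 60 other pairs. Among assembloids it was 6 of 18 against 5 of 36, and with MM HepOrgs 11 of 45 against 18 of 90. In the assembloid library that stood apart 15 members had no count, so their level there was under the limit of depth.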
